A study of Mus musculus with 6 samples.

Results

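A set of 10 genes that mark astrocytes, the glial cells that ensheath synapses and blood vessels, were followed through 6 arrays of mouse choroid plexus. They were Gfap, Aqp4, Aldh1l1, Gja1, Aldoc, S100b, Gjb6, Fgfr3, Ntsr2 and Mlc1, taken by name from a list. All 10 genes had at least 1 probe set, a group of probes on the array that reads 1 transcript, with that gene as its only symbol, among 18193 such genes. Together they had 23 of the 45037 probe sets other than controls. The samples were total RNA of choroid plexus epithelium from whole brain, from wild type (WT) B10.PL mice (3 arrays) and RAG-/- mice of that strain (3 arrays), each on 1 single-colour array. RAG1 and RAG2 together cut the DNA beside the gene segments of antigen receptors, which are then joined. T and B cells do not mature where either protein is missing. Which of them these mice lacked is not stated. The sample labels also give no age, sex or treatment, and do not say whether an array holds 1 animal or a pool. The p-values below thus rest on the spread among these arrays, part or all of which may be technical.

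A code in the titles joins 1 WT and 1 RAG-/- array into each of 3 pairs. For pair 1 the descriptions say that the samples were reversed, and they give both arrays the opposite genotype to that in the titles. Arrays are named here by the description, and differences are given by description and by title. In practice the reading by title turns the sign of pair 1 and leaves pairs 2 and 3 as they are.

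Astrocytes belong to brain tissue and are not part of the choroid plexus, whose stroma and epithelium lie inside the ventricle. The plexus is, however, attached to the ventricle wall, where astrocytes and ciliated ependymal cells lie next to it. Several of these markers have other known sources: Aqp4 and S100b are also made by ependymal cells, and Gja1 and Gjb6 by cells of the meninges. In these bulk samples, fewer cells of a type and less RNA per cell cannot be told apart.

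The arrays had median deposited intensities between 78.0 and 97.3. RAG-/- replicate 2 stood apart, with a score of 106.0 on principal component 1 (48.4% of variance) against scores from -69.3 to 31.2 elsewhere. The epithelial marker Ttr, which carries thyroid hormone, had one of the brightest probe sets, at 14.69 to 14.83 on the log2 scale. Rag1 was dim, at the 27.1 percentile, with levels of 6.54, 4.16 and 4.35 in WT replicates 1, 2 and 3 and of 4.60, 6.92 and 6.31 in RAG-/- replicates 1, 2 and 3. Rag2, at the 26.2 percentile, was at 4.46, 4.67 and 7.14 in the WT arrays and at 5.55, 4.87 and 5.99 in the RAG-/- arrays, in the same order of replicates. Neither gene was below the WT arrays in every RAG-/- array. Whether these probe sets lie inside the disrupted sequence is not known here, so they do not check the labels, and directions below refer to arrays as labelled. Read by title, Rag1 was higher in all 3 RAG-/- arrays than in all WT arrays.

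Genes of the sex chromosomes, looked up after the first tests had been seen, set RAG-/- replicates 1 and 3 apart from the other arrays. Xist, the RNA that coats the inactive X chromosome of females, was at 12.88, 12.95 and 13.19 in WT replicates 1, 2 and 3 and at 9.04, 12.20 and 7.43 in RAG-/- replicates 1, 2 and 3. The Y-linked gene Eif2s3y was at 9.47 and 9.76 in RAG-/- replicates 1 and 3 and between 4.19 and 5.76 in the others, and Kdm5d was at 9.26 and 9.90 against 4.07 to 5.51. Uty, also on the Y chromosome, was at 8.14 and 7.46 against 4.92 to 6.0. Pairs 1 and 3 thus each joined arrays that differed in these genes, while both arrays of pair 2 had high Xist and low Y-linked levels. The part of this difference in the comparisons of genotype by description was not tested for the astrocyte genes.

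Astrocyte markers were readily measured in these samples, and their levels differed between arrays of the same genotype. Levels are log2(intensity + 16) after quantile normalization, at the brightest probe set of each gene. The brightest probe sets lay between the 83.0 and the 99.0 percentile of all probe sets, so all 10 genes passed the filter, which set aside the lowest 40% of probe sets. Each gene spanned at least 1.09 log2 units over the 6 arrays and at most 3.71. A range above 1 log2 unit was found in all 10 members and in 55.4% of the 13537 genes past the filter. The highest array was RAG-/- replicate 2 for 7 of the 10, where 25.4% of all genes were highest in that array. For 7 of the 10, both arrays of pair 3 lay below the other 4, where 17.0% of all genes did so.

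Among the membrane and signalling proteins, Ntsr2, a neurotensin receptor, varied most. It was at 10.67, 10.20 and 9.22 in WT replicates 1, 2 and 3 and at 10.39, 12.51 and 8.80 in RAG-/- replicates 1, 2 and 3. RAG-/- replicate 2 was 1.83 above the next array, and the highest array was 13.0-fold above the lowest. As deposited, its intensity was 5390 in RAG-/- replicate 2 and between 393 and 1620 in the other arrays. Fgfr3, a fibroblast growth factor receptor, was at 9.70, 9.60 and 9.58 in the WT arrays and at 9.54, 10.69 and 9.23 in the RAG-/- arrays, in the order of the replicates. Its WT arrays were almost level, and RAG-/- replicate 2 alone rose above them, by 0.99 over the next array.

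Aqp4 and Mlc1 encode proteins of the astrocyte endfeet, a water channel and a membrane protein that is mutated in a leukodystrophy with cysts. Aqp4 was at 11.69, 11.78 and 10.92 in WT replicates 1, 2 and 3 and at 11.14, 12.77 and 11.05 in RAG-/- replicates 1, 2 and 3. Mlc1 was at 11.21, 10.96 and 9.29 in the WT arrays and at 10.82, 11.63 and 9.39 in the RAG-/- arrays, in that order. Both were highest in RAG-/- replicate 2 and lowest in WT replicate 3, with the WT and RAG-/- values interleaved. The pair means of Mlc1 were 11.02, 11.30 and 9.34 for pairs 1, 2 and 3, so that pair 3 lay 1.95 below pair 2. Within the pairs, the WT and RAG-/- arrays differed by 0.68 at most.

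The connexins Gja1 and Gjb6, which form the gap junctions that couple astrocytes, had WT replicate 1 and RAG-/- replicate 2 as their highest arrays. Gja1 was at 13.69, 12.66 and 12.93 in WT replicates 1, 2 and 3 and at 12.97, 13.79 and 12.69 in RAG-/- replicates 1, 2 and 3. Gjb6 was at 12.44, 10.70 and 10.25 in the WT arrays and at 10.51, 11.81 and 9.97 in the RAG-/- arrays, in the same order. In pair 1, Gjb6 was 1.94 lower in the array described as RAG-/-, the widest difference of any member in that pair, where the median over the members was -0.47. WT replicate 1 also had the highest mean of 12 fibroblast and meningeal markers, at 12.25, against 9.85 in RAG-/- replicate 2. The share of meningeal cells in the connexin signal was not tested.

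Of the cytoplasmic proteins, Aldoc, an aldolase of glycolysis, was at 13.69, 14.47 and 12.55 in WT replicates 1, 2 and 3 and at 13.46, 14.63 and 11.94 in RAG-/- replicates 1, 2 and 3. Its values grouped by pair, with pair means of 13.58, 14.55 and 12.24, while the WT and RAG-/- arrays of a pair differed by 0.62 at most. S100b, a calcium-binding protein, was at 12.51, 12.17 and 11.01 in the WT arrays and at 11.72, 12.62 and 10.90 in the RAG-/- arrays, in that order. Here too pair 3 was lowest, at a mean of 10.96 against 12.12 and 12.40. Aldh1l1, an enzyme of folate metabolism, had the smallest range, with 10.72, 11.06 and 10.11 in WT and 11.21, 10.67 and 10.39 in RAG-/-. It was the only member with its highest value in RAG-/- replicate 1 and the only one lower in RAG-/- replicate 2 than in WT replicate 2, by 0.39.

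Gfap, the intermediate filament that is the classical marker of astrocytes, stood apart at its brightest probe set. It was at 10.57, 8.46 and 10.56 in WT replicates 1, 2 and 3 and at 9.90, 10.15 and 10.43 in RAG-/- replicates 1, 2 and 3. WT replicate 2 was low and the other 5 arrays lay within 0.67 of each other, with pair 3 among the high arrays. This probe set, 1440142_s_at, has a suffix that marks probes shared by several transcripts. A dimmer probe set without it, 1426508_at at the 61.2 percentile, gave 7.72, 7.46 and 6.94 in WT and 7.83, 7.83 and 7.06 in RAG-/-. At that probe set pair 3 was lowest, as for most other members.

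**Figure D1:**
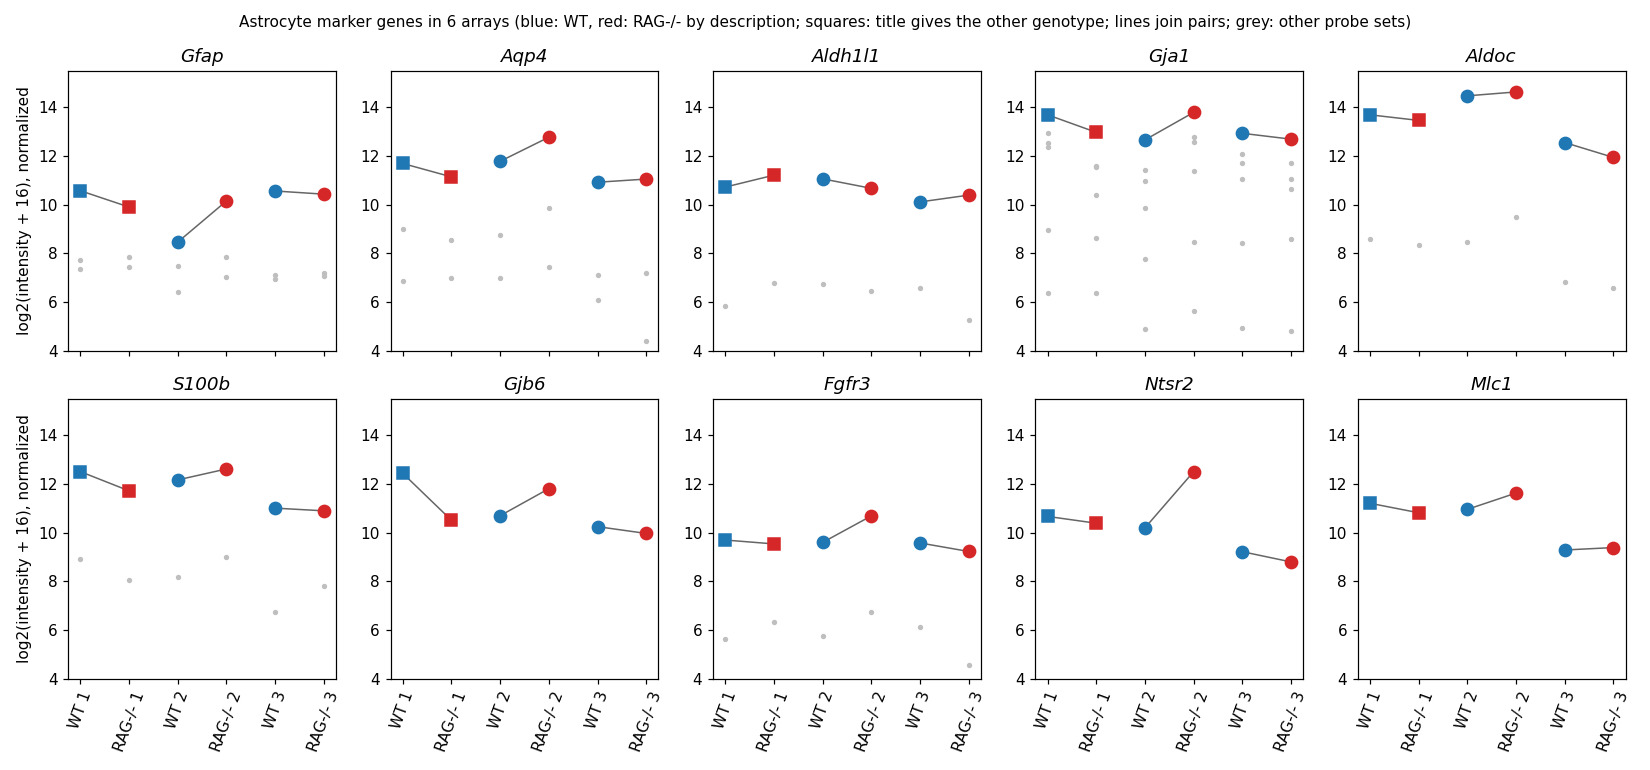
Level of each astrocyte marker gene, as log2(intensity + 16) after quantile normalization, in the 6 arrays, with WT in blue and RAG-/- in red by description, squares where the title gives the other genotype, lines joining the arrays of a pair and grey dots for other probe sets of the gene. RAG-/- replicate 2 is the highest array in 7 of 10 genes, and WT replicate 2 is the lowest for Gfap, at 8.46.

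The first comparison asked whether the markers differed between RAG-/- and WT choroid plexus. By description no member passed the test. With limma, 0 of 27023 probe sets passed an adjusted p (Benjamini-Hochberg) of 0.05, which is 0% of those tested, and 192 had an unadjusted p under 0.05. Among the 10 members 0 passed, 0 had an unadjusted p under 0.05, and the adjusted p was 1 for each. The smallest exact permutation p of a member was 0.6, two-sided, where 3 against 3 arrays cannot go below 0.1. The WT and RAG-/- arrays overlapped in all 10 members. Over all genes the groups did not overlap in 1.69%, with RAG-/- higher, and in 1.41%, with RAG-/- lower.

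The members leaned in both directions by description. Of the 10, 7 had the higher mean in RAG-/- and 3 in WT, with a median difference of 0.13, where 48.9% of all genes had the higher mean in RAG-/- and the median over all genes was -0.01. Ntsr2 had the difference farthest from 0 at 0.53, from 10.03 ± 0.74 in WT to 10.56 ± 1.86 in RAG-/- (SD, n = 3). Its 95% interval in the fit ran from -1.40 to 2.47. Gjb6 differed by -0.37, from 11.13 ± 1.16 to 10.76 ± 0.94 (SD, n = 3), with an interval from -1.85 to 1.11. Gfap differed by 0.30, with an interval from -0.99 to 1.58, and Gja1 by 0.05, with an interval from -0.76 to 0.87. Changes of 1 log2 unit in either direction lay inside the intervals of Ntsr2 and Gjb6, and inside those of Aldoc (-1.81 to 1.35), S100b (-1.32 to 1.02) and Mlc1 (-1.40 to 1.66).

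By title the members leaned upward in RAG-/-, and again no member passed the test. The means were higher in RAG-/- for 8 of 10, with a median difference of 0.46, where 46.1% of all genes were higher and the median over all genes was -0.02. With limma, 0 of 27023 probe sets passed (0%), 333 had an unadjusted p under 0.05, and 0 of the 10 members did either. With the pair as a block limma called 1 probe set (0.0037%), of no member, and the smallest unadjusted p of a member was 0.0332, for Aqp4 (adjusted p = 0.926). Gjb6 differed by 0.92, from 10.48 ± 0.23 in the arrays titled WT to 11.41 ± 1.28 in those titled RAG-/- (SD, n = 3; exact permutation p = 0.4), with a 95% interval from -0.39 to 2.24. Gfap differed by 0.74 and Gja1 by 0.54, each with an exact permutation p of 0.3, the smallest among the members. Aldh1l1 and Aldoc were the exceptions, at -0.20 and -0.07. The groups overlapped in all 10 members, where over all genes they did not overlap in 2.20%, with RAG-/- higher, and in 2.53%, with RAG-/- lower. Oligodendrocyte markers leaned the same way by title and further, with 11 of 11 higher in RAG-/-, a median of 1.24 and an unadjusted p (limma) under 0.05 in all 11, though 0 passed after adjustment. By description 11 of 11 were higher too, with a median of 1.08, but an unadjusted p (limma) under 0.05 in only 3 of 11. The neuron markers had medians of 0.13 by description and 0.35 by title, and the choroid plexus epithelium markers -0.21 and -0.38. The part of these cell types in the astrocyte differences was not tested.

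The pairs went in different directions. In pair 1 the array described as RAG-/- was lower in 9 of 10 members, where 46.9% of all genes were lower and 53.1% higher, and by over 0.5 in 5 of 10, against 13.0% of all genes. Aldh1l1 was the exception, at 0.49 higher. In pair 2 it was higher in 9 of 10, where 47.4% of all genes were higher and 52.5% lower, and by over 0.5 in 7 of 10, against 21.6% of all genes. The median differences in these pairs were -0.47 and 1.04. In pair 3 the members were close to level, with 3 of 10 higher and 7 lower, where 46.5% of all genes were higher and 53.4% lower, and a median of -0.18. In that pair 0 members were higher by over 0.5, against 8.29% of all genes, and 1 member, Aldoc, was lower by over 0.5, against 9.77%. Each pair has 1 array of each genotype, so these differences have no replicate.

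The mean over the 10 members followed the same course. It was 11.69, 11.21 and 10.64 in WT replicates 1, 2 and 3 and 11.17, 12.13 and 10.48 in RAG-/- replicates 1, 2 and 3. RAG-/- replicate 2 was highest and both arrays of pair 3 were lowest. By description the means were 11.18 ± 0.52 in WT and 11.26 ± 0.83 in RAG-/- (SD, n = 3), a difference of 0.08. By title they were 11.01 ± 0.31 and 11.43 ± 0.85 (SD, n = 3), a difference of 0.43. Without RAG-/- replicate 2 these differences were -0.36 and 0.08.

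**Figure D2:**
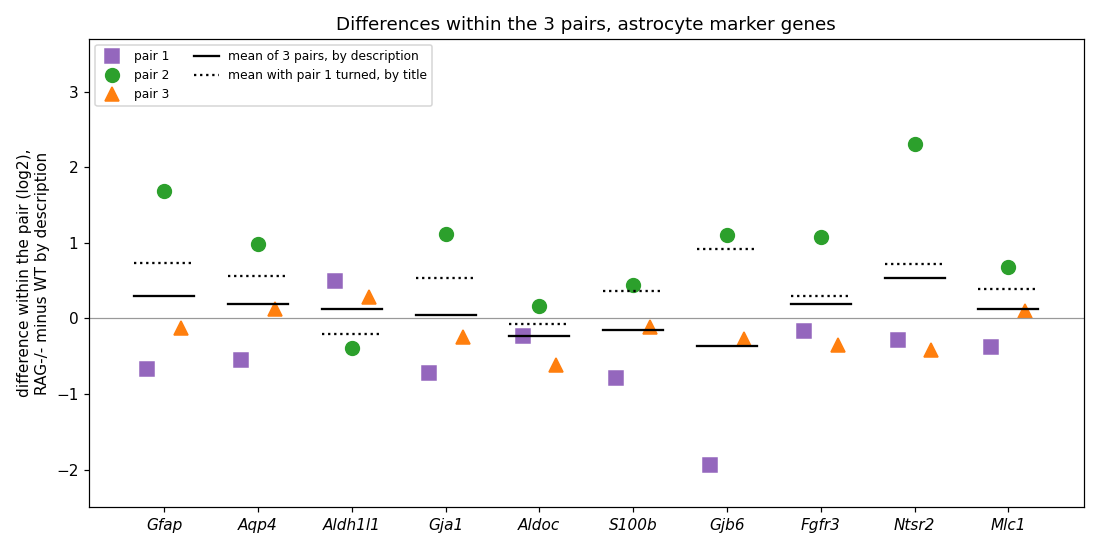
Difference within each pair (RAG-/- minus WT by description, log2) for the 10 genes, with squares for pair 1, circles for pair 2 and triangles for pair 3, a solid line for the mean of the 3 pairs and a dotted line for the mean with pair 1 turned, as the titles read. Pair 1 lies below 0 in 9 of 10 genes and pair 2 above 0 in 9 of 10, and Ntsr2 in pair 2 is highest at 2.31.

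The next question was whether the members varied together over the arrays. All 45 relations between members were computed over the 6 arrays, which come in pairs and are not fully independent. Pearson's r was above 0 in 38 of them, with a median of 0.69, and the median of Spearman's rho was 0.66. By exact permutation, 16 of 45 had an unadjusted p under 0.05 for r and 14 for rho. None passed after Benjamini-Hochberg adjustment over the 45, where the smallest adjusted p was 0.102 for r and 0.107 for rho. How often relations among all genes reach such values is not given here, so the counts do not set the members apart. With the 2 arrays farthest from the median of the first gene left out, the median r was 0.41 and 32 of 45 stayed above 0. Without RAG-/- replicate 2, over 5 arrays, the median r was 0.66.

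S100b and Mlc1 were the closest relation, at r = 0.97 (exact permutation p = 0.00278, adjusted p = 0.102) and rho = 0.94 (exact permutation p = 0.0167, adjusted p = 0.107), and r was 0.88 without the 2 farthest arrays. Fgfr3 and Ntsr2 had r = 0.93, but 0.43 without the 2 farthest arrays. Gja1 and Gjb6, the connexins, had r = 0.90 over all arrays and 0.06 without the 2 farthest, so that their relation rests on those 2. Aldh1l1 was loosely tied to the others, with a median r of 0.26. Leaving out Gfap and Aldh1l1, a choice made after their values were seen, the 28 relations among the other 8 genes lay at 0.49 and above.

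The place of Gfap depended on the probe set. At the brightest, r with the other 9 members had a median of -0.22 and was below 0 in 6. At 1426508_at the median was 0.76 and r was above 0 in all 9, from 0.56 to 0.93. At 1426509_s_at the median was -0.14. Gja1 showed a similar spread over its 6 probe sets, with medians of 0.79 at 1415800_at and 0.70 at the brightest, 1437992_x_at, but 0.10 at 1438650_x_at. At 1438973_x_at, r was below 0 with 5 of the 9. The suffix of the last 3 marks probes that can also bind other transcripts.

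**Figure D3:**
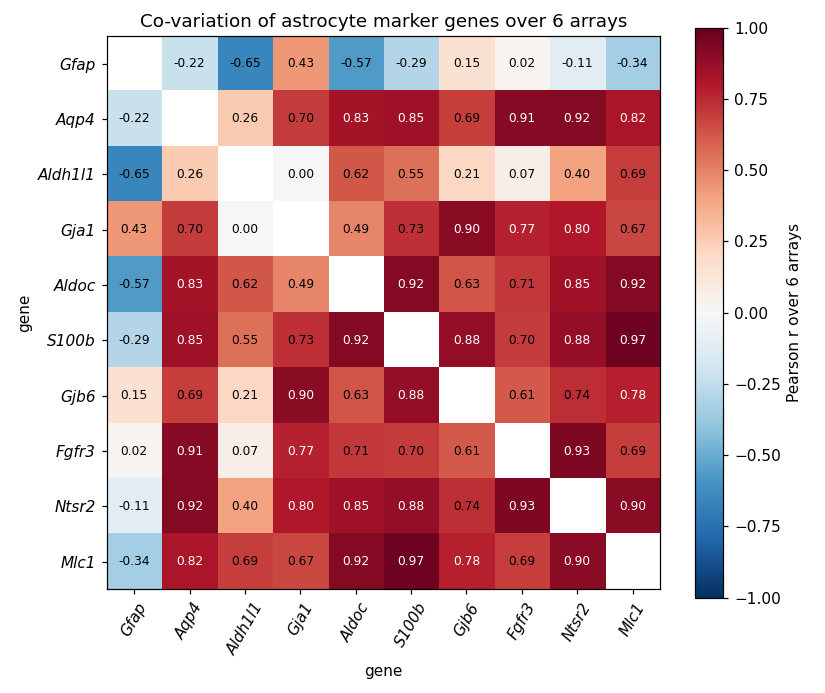
Pearson's r over 6 arrays for each pair of astrocyte marker genes at their brightest probe sets, from -1 in blue to 1 in red. S100b and Mlc1 have the highest value, 0.97, and the row of Gfap holds 6 of the 7 values below 0.

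The promoters of 4 members are shown. S100b and Mlc1 were the closest relation and Ntsr2 had the widest range. Gfap stood apart at its brightest probe set but not at 1426508_at. Each is the 250 bases before a transcript start annotated in RefSeq, build GRCm38.p6, at chr10:76253586-76253835 (plus strand), chr15:88978554-88978803 (minus strand), chr12:16653220-16653469 (plus strand) and chr11:102897201-102897450 (minus strand). For Mlc1 and Ntsr2 that start lies inside the span of the gene in the same annotation, so the Mlc1 window is within the gene and the Ntsr2 window overlaps the first bases of the gene. Capitals mark TTGGC or its complement GCCAA, the half-site of nuclear factor I, a family of factors that takes part in astrocyte development.
S100b: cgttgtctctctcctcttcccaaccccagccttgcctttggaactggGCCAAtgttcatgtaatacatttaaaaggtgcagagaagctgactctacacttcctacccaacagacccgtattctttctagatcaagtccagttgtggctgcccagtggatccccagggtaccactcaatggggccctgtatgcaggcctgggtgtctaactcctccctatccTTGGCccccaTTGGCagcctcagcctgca
Mlc1: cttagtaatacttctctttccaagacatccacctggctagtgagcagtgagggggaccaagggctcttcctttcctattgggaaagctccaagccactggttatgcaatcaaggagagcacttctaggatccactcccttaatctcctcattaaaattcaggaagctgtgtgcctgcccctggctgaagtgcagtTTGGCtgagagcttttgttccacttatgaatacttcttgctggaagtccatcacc
Ntsr2: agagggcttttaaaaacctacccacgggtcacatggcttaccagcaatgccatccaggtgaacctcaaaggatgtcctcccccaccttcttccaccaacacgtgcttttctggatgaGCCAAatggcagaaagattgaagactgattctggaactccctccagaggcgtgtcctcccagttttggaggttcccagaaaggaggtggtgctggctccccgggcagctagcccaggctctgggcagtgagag
Gfap: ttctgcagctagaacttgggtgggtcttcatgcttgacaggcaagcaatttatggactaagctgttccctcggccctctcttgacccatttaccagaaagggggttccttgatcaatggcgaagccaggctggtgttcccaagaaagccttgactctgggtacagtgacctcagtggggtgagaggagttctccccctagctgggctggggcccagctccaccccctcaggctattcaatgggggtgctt
The half-site occurred 3 times in the window of S100b, once in those of Mlc1 and Ntsr2 and not in that of Gfap. Windows were read for 9 members, and 4 of their 11 windows held it, where 41.5% of 32851 windows of all genes did. The letters TTCNNNGAA, to which STAT factors bind, were in 2 of the 11 windows against 7.02% of all, and ACAAT or ATTGT, a core of SOX factor sites, in 1 of 11 against 27.7%. A match of letters is a description and not a site.

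Genes outside the list with a like pattern were then sought. Likeness was the lower of 2 Pearson correlations with the mean of the members after each was centred, over 6 arrays and over the 4 left without RAG-/- replicates 2 and 3, the farthest from the median. Of 13526 genes compared, 132 (0.976%) had a likeness above 0.9, over so few arrays. The 10 most alike were Guk1, Sema5a, Rasgef1a, Gm266, Smarcd3, Farp1, Rorb, Far2, Cap2 and Slc1a2, at 0.978 to 0.993. Slc1a2, the main glutamate transporter of astrocytes, was at 12.29, 11.41 and 10.04 in WT replicates 1, 2 and 3 and at 11.58, 13.25 and 10.45 in RAG-/- replicates 1, 2 and 3. RAG-/- replicate 2 was its highest array and both arrays of pair 3 its lowest. Genes picked for likeness to the members share their course by choice, so this adds no support.

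Other genes of astrocytes, from a list of 34 of which 33 were measured, showed the same course on average. Of these, 0 passed the threshold by description and 0 by title. RAG-/- replicate 2 was the highest array for 21 of 33 and the lowest for 7, where 25.4% and 31.1% of all genes were so. Both arrays of pair 3 lay below the other 4 in 18 of 33, where 17.0% of all genes did so. The median difference of the list was 0.09 by description, with 19 of 33 higher in RAG-/-, where 48.9% of all genes were higher. By title it was 0.28, with 24 of 33 higher, where 46.1% of all genes were higher. Gdf10, a growth factor known from Bergmann glia of the cerebellum, had the widest range, with 10.68, 11.78 and 6.89 in WT and 8.70, 10.96 and 7.24 in RAG-/-, in the order of the replicates. Agt, angiotensinogen, reached 11.48 in RAG-/- replicate 2 and lay between 6.77 and 8.89 elsewhere. Grin2c, a subunit of NMDA receptors, and Gpr37l1, an orphan receptor, spanned 3.97 and 3.66 log2 units. At the other end, Clu, a secreted chaperone that many cell types make, spanned 0.22 and Bmpr1b, a BMP receptor, 0.39. The Clu probe set was among the brightest on the array, between 14.65 and 14.87, so that its narrow range was read near the top of the scale.

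Genes known to rise in reactive astrocytes took another course. Of 20 listed, 19 were measured and 17 passed the filter, and 0 passed the threshold by either reading. WT replicate 1 was the highest array for 14 of 17 and RAG-/- replicate 2 the lowest for 10 of 17, where 10.6% and 31.1% of all genes were so. By description 14 of 17 were lower and 3 higher in RAG-/-, with a median of -0.54, where 48.9% of all genes were higher. By title 5 of 17 were lower and 12 higher, with a median of 0.21, where 46.1% of all genes were higher. By description the fibroblast and meningeal markers were lower in 12 of 12, with a median of -1.01, and the endothelial markers in 10 of 10, with a median of -0.46, while by title these medians were -0.43 and -0.08. Lcn2, an iron-siderophore carrier of the innate response, was at 10.05, 6.15 and 6.75 in WT replicates 1, 2 and 3 and at 8.61, 4.54 and 7.63 in RAG-/- replicates 1, 2 and 3. Serping1, a complement inhibitor, Aspg and Srgn, a granule proteoglycan, spanned 3.14, 2.88 and 2.83 log2 units, while Tgm1, which did not pass the filter, and S1pr3 spanned 1.40 and 0.91. Many genes of this list are also made by stromal, vascular or blood cells, and the fibroblast, endothelial and macrophage lists were likewise highest in WT replicate 1.

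Markers of other cells were set beside the astrocyte means, as list means centred on 0 over the arrays. All 14 measured neuron markers passed the filter, and their mean was 1.64 in RAG-/- replicate 2 and -0.70 and -1.22 in WT and RAG-/- replicate 3, against 0.91, -0.58 and -0.74 for the astrocyte members. In uncentred values the neuron means ran from 9.40 to 10.54 in WT and from 8.88 to 11.74 in RAG-/-. Oligodendrocyte markers, 11 genes, went with the astrocyte members in RAG-/- replicate 2, at 1.03, but against them in RAG-/- replicate 3, at 0.98. The 16 measured choroid plexus epithelium markers were lowest in RAG-/- replicate 2 without exception, at a mean of -0.81, and lay between 0.11 and 0.28 in the other arrays. Ependymal and motile cilia markers, 15 genes, were lowest in WT replicate 2, at -0.40, and at -0.32 in RAG-/- replicate 2. They were highest in RAG-/- replicate 3, at 0.46. The members of this list went both ways, with 9 of 15 lowest in RAG-/- replicate 2, where 31.1% of all genes were so. Another 2, Ccdc153 and Tmem212, were highest there, at 11.57 and 10.87 before centring, where 25.4% of all genes were highest. The part of neighbouring brain tissue in the astrocyte signal was not tested.

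**Figure D4:**
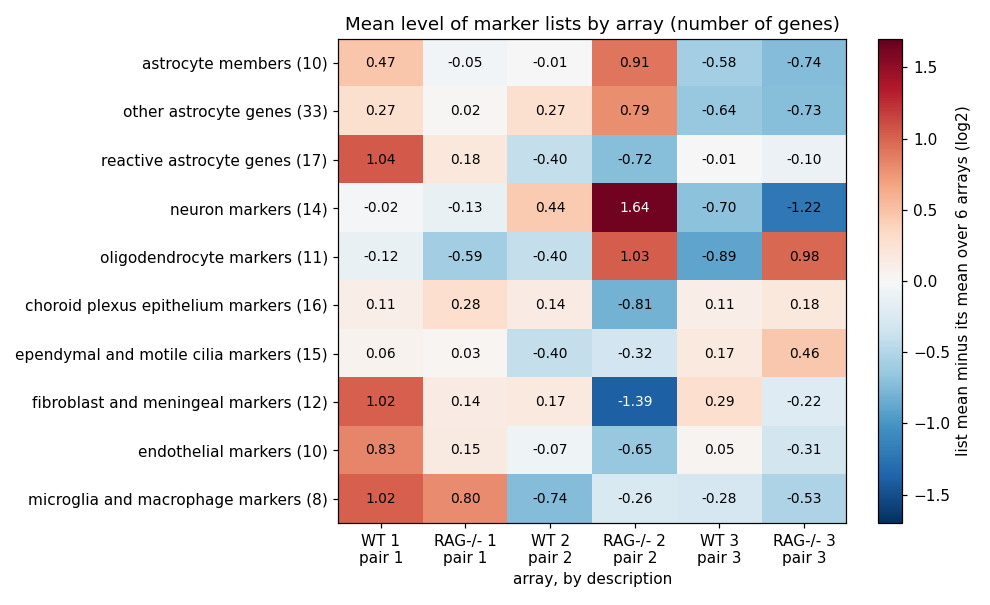
Mean level of each marker list by array, as the difference from the list's mean over 6 arrays (log2), with the number of genes past the filter in brackets. The astrocyte members and the neuron markers are both highest in RAG-/- replicate 2, at 0.91 and 1.64, where the choroid plexus epithelium markers are lowest, at -0.81.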

How the data were processed

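The deposited table gives linear intensities of 45101 probe sets in 6 arrays. The software is not given in the sources used here. In the intensities deposited by the authors, each array has the same trimmed mean, 500.0 without 2% of probe sets at either end, so arrays had been brought to 1 brightness. Dim values are open to how background was estimated. The number of arrays limits the precision.

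Groups were taken from the descriptions, with the titles as the other reading. The 64 controls were dropped. The scale was log2(intensity + 16), which understates changes of dim probe sets, and quantile normalized, since the 75th percentiles differed by 0.232 log2 units, above a limit of 0.2. Of 45037 probe sets, the platform annotation gave 1 symbol to 34945 and several to 932, while 9160 had no name here. By gene number 34741 matched the GRCm38.p6 gene table. Those with several were given no name. The brightest probe set stood for a gene, and the lowest 40% of probe sets were left out of the test. Differences, RAG-/- minus WT, were tested two-sided with limma 3.58.1 (lmFit and eBayes, trended prior; R 4.3.3) over 27023 probe sets with Benjamini-Hochberg adjustment and a threshold of 0.05. The fit was tested on simulated data. Arrays sharing a title code deviated together from their groups (r of 0.287, 0.394 and 0.577, each above 0.1), while other WT and RAG-/- arrays had r from -0.418 to 0.009. The codes were therefore taken as pairing, and pairs were also fitted as blocks.

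The members, the lists and the tests were chosen with earlier results of these data known. Named were all members, the 10 genes most alike, the 4 widest and 2 narrowest ranges of both other astrocyte lists, and Ttr, Rag1 and Rag2. Xist, Eif2s3y, Kdm5d and Uty were chosen after values had been seen. Gene roles are background knowledge. The promoter of 1 member was not analysed here.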

Additional observations from a re-analysis of the deposited data

How the results depend on the processing

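No member passed the threshold under any setting tested: the values as deposited, pseudocounts of 1 and 64, no filter, the pair as a block, each array or pair left out, and, chosen after seeing the data, probe sets not ending in _x_at or _s_at. Over all these fits the smallest adjusted p of a member (limma) was 0.978 by description and 0.926 by title. With the pair as a block the count over all probe sets was 0 by description and 1 by title, Pttg1, and the block changed no call of a member. By description the count was between 0 and 4 with single arrays left out, reaching 4 without RAG-/- replicate 2 (Xist, lower in RAG-/- by a log2 difference of -4.78, and 3 unnamed probe sets, higher by 4.80 to 7.89), and 2 without pair 2 (both unnamed, higher by 5.33 and 7.84). These genes were chosen after their values were seen. In the fits without RAG-/- replicate 2 or pair 2, the RAG-/- arrays by description were replicates 1 and 3. Both had low Xist and high Y-linked levels, unlike every WT array, so genotype and that difference cannot be told apart there. By title the count was 0 with any single array left out. The mean difference of the members ran from -0.36 to 0.47 by description and from 0.08 to 0.90 by title with single arrays left out. The filter and the block leave a difference as it is. Among the other values, the sign was the opposite in 30 of 140 by description and in 12 of 140 by title. Some of these 140 could not turn either. The mean of all probe sets changes nothing for the 3 members with 1 probe set. Leaving out probe sets ending in _x_at or _s_at changes the probe set of Gfap and Gja1 only. With single arrays left out, the differences by description ran from -0.40 to 0.65 for Gfap, -0.37 to 0.49 for Aqp4, -0.14 to 0.34 for Aldh1l1, -0.27 to 0.35 for Gja1, -0.87 to 0.48 for Aldoc, -0.59 to 0.27 for S100b, -0.89 to 0.29 for Gjb6, -0.24 to 0.49 for Fgfr3, -0.44 to 1.41 for Ntsr2 and -0.46 to 0.74 for Mlc1. By title the ranges that crossed 0 were -0.54 to 0.01 for Aldh1l1, -0.68 to 0.67 for Aldoc, -0.11 to 0.62 for Fgfr3, -0.20 to 1.65 for Ntsr2 and -0.15 to 1.06 for Mlc1. Without pair 2 the sign turned by description for Gfap (-0.40), Aqp4 (-0.21), Gja1 (-0.48), Fgfr3 (-0.25), Ntsr2 (-0.36) and Mlc1 (-0.14), and by title for Fgfr3 (-0.10) and Ntsr2 (-0.07). Without pair 1 it turned by description for Aldh1l1 (-0.06), S100b (0.17) and Gjb6 (0.42), and without pair 3 by title for Aldoc (0.20). With the mean of all probe sets of a gene, which was not tested, it turned by description for Aldh1l1 (-0.05), Gja1 (-0.00015) and S100b (0.08), and by title for Aldoc (0.14) and Fgfr3 (-0.06). The cause was not tested. Dim probe sets, such as 1425796_a_at of Fgfr3 and 1415801_at of Gja1, did not pass the filter.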

Other observations

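The probe sets of 1 gene did not always keep the order of the arrays. Of the 7 members with several probe sets, Gja1 had 6, and in pair 1 its array described as RAG-/- was lower by 2.12 at 1438650_x_at, by 1.34 at 1438945_x_at and by 0.02 at 1415801_at. Aqp4 was higher by 0.13 in the RAG-/- array of pair 3 at its brightest probe set and lower by 1.68 at 1447745_at, a dim one at the 47.3 percentile. S100b was lower by 0.11 in that array at 1434342_at and higher by 1.04 at 1419383_at. For Aldoc both probe sets put pair 3 lowest, and the dimmer one, 1424714_at, ranged over 2.90 log2 units against 2.70 at the brighter.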
